A study of Mus musculus with 9 samples.

Results

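The 33 genes described here carry glucose into the cell, break it down to pyruvate and lactate, move lactate across the membrane, or sense and answer low oxygen. They were chosen by gene name, for their place in these pathways, out of 16537 genes in the deposited table, and all 33 were listed and passed the filter on low counts. The 9 RNA-seq libraries were made from bone marrow cells, sorted from mice of the inbred strain FVB/NJ. The control group, HPC, held hematopoietic progenitor cells of wild-type mice at postnatal day 42 (n = 3 libraries). The leukemic progenitors (LP) came from mice of the genotype PML-RAR, the fusion of the PML protein with the retinoic acid receptor that drives acute promyelocytic leukemia, and were taken in the phases labelled early (n = 3) and median (n = 3). Which markers were used to sort, how old the PML-RAR mice were and which promoter drives the fusion is not given in the sources used here. Since nothing ties the 3 libraries of each group to different mice, a p-value here measures spread among libraries that may be technical replicates.

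Glycolysis starts with glucose uptake by transporters of the GLUT family and its capture by hexokinase. Phosphofructokinase commits the sugar to breakdown, and a chain of further enzymes ends in pyruvate, which lactate dehydrogenase can turn to lactate for export. Most steps are served by several isozymes from separate genes, and blood cells of different lineages are known to use different ones. When oxygen is low, the transcription factor subunit HIF-1alpha escapes hydroxylation by prolyl hydroxylases (Egln genes) and raises many glycolytic genes. The bone marrow is known as a tissue of low oxygen.

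The groups differed widely beyond these genes, and the labelled types were checked against marker lists. Recovered depth was 20.6 to 28.4 M (mega) fragments per library. Summed FPKM (fragments per kilobase of transcript and per 1 M fragments) of 8 promyelocyte markers was 9763 to 10993 in HPC, 28124 to 33046 in early LP and 23160 to 26789 in the median phase, with Mpo the highest of them in HPC and Elane in both LP groups. Among stem and progenitor markers, Cd34 was at 94.5 ± 15.4 FPKM in HPC, 1.15 ± 0.110 in early LP and 0.454 ± 0.0905 in the median phase, while Kit was at 72.4 ± 1.96, 40.4 ± 0.623 and 39.0 ± 2.26. Erythroid markers, 16 in the table, summed to 2183 to 2734 FPKM in HPC, 15.7 to 27.6 in early LP and 340 to 527 in the median phase. The highest of them was Car1 in HPC and Hba-a1, a haemoglobin gene, in both LP groups, and Hba-a1 alone was at 372, 512 and 331 FPKM in the libraries of the median phase. Of 15 erythroid markers tested, 14 fell and none rose in early LP (Slc4a1 was not called), and 12 fell and 3 rose in the median phase, with medians on the log2 scale of -7.43 and -7.40. The erythroid transcription factor Klf1 was at 95.5 ± 10.5 FPKM in HPC, 0.477 ± 0.0670 in early LP and 0.401 ± 0.0782 in the median phase, and no erythroid marker was at 0 in every library of a group. Summed monocyte markers, led by Ly6c2 in each group, were 880 to 1055 in HPC, 10872 to 11196 in early LP and 9469 to 9956 in the median phase. Nearly all of these sums was Ly6c2, at 873 ± 77.7, 10786 ± 166 and 9426 ± 214 FPKM, while of 7 monocyte markers tested 3 rose and 3 fell in each phase (median log2 changes 0.07 and -0.01). Those that fell were Irf8, Csf1r and Cx3cr1, with log2 changes of -4.88, -1.76 and -2.80 in early LP. Late neutrophil markers, led by S100a8, summed to 11924 to 18545, 45793 to 59686 and 61338 to 65293 FPKM. Only S100a8 and S100a9 of these 10 rose against HPC, while 2 fell in early LP (median log2 change 0.03) and 6 fell in the median phase (median -0.78). In median against early LP 4 of the 10 fell and none rose: Ltf (-1.62), Mmp8 (-1.89), Mmp9 (-1.84) and Cxcr2 (-0.69). Megakaryocyte markers summed to 80.5 to 120, 3.59 to 4.91 and 3.04 to 3.72. Of 7 basophil and mast cell markers, led by Cpa3 in HPC and Mcpt8 in LP, 1 rose and 5 fell in early LP, and 1 rose and 4 fell in the median phase. Lymphoid markers summed to 32.5 to 43.7, 0.817 to 1.15 and 1.35 to 2.40, and stromal and endothelial markers to 15.6 to 20.0, 4.87 to 6.01 and 4.35 to 4.94. The parts of these cell types in the changes below were not tested, and in such bulk libraries fewer cells of a type and less RNA per cell cannot be told apart.

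Most of the glycolysis and hypoxia genes stood higher in leukemic progenitors, while single isozymes stood far lower. In early LP against HPC, 20 of 33 rose and 7 fell (edgeR's quasi-likelihood test, Benjamini-Hochberg adjusted p under 0.05 over all 12837 genes tested). Of all genes tested, 73.2% were called, with 35.3% that rose and 37.9% that fell. At least a 2-fold rise was seen for 15 members and a 2-fold fall for 5, against 15.6% and 14.2% of all genes. The median log2 change of the 33 was 0.70, and that of all genes tested was -0.04. In median LP against HPC, 22 rose and 7 fell, beside 73.8% of all genes that were called, with 36.0% that rose and 37.7% that fell. Again 15 rose and 5 fell by at least 2-fold (16.2% and 14.5% of all genes), with a median of 0.94 beside -0.04. Both comparisons share the HPC libraries. The 20 genes that rose in early LP also rose in median LP: Slc2a1, Hk2, Hk3, Gpi1, Pfkl, Pfkp, Pfkfb3, Pfkfb4, Aldoa, Aldoc, Gapdh, Pgk1, Pgam1, Eno1, Slc16a3, Egln1, Egln3, Bnip3, Hif1a and Vegfa. The 6 genes that fell in both were Slc2a3, Hk1, Pfkm, Pklr, Ldhb and Pdk1. Tpi1, Ldha and Bnip3l were called in neither.

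**Figure D1:**
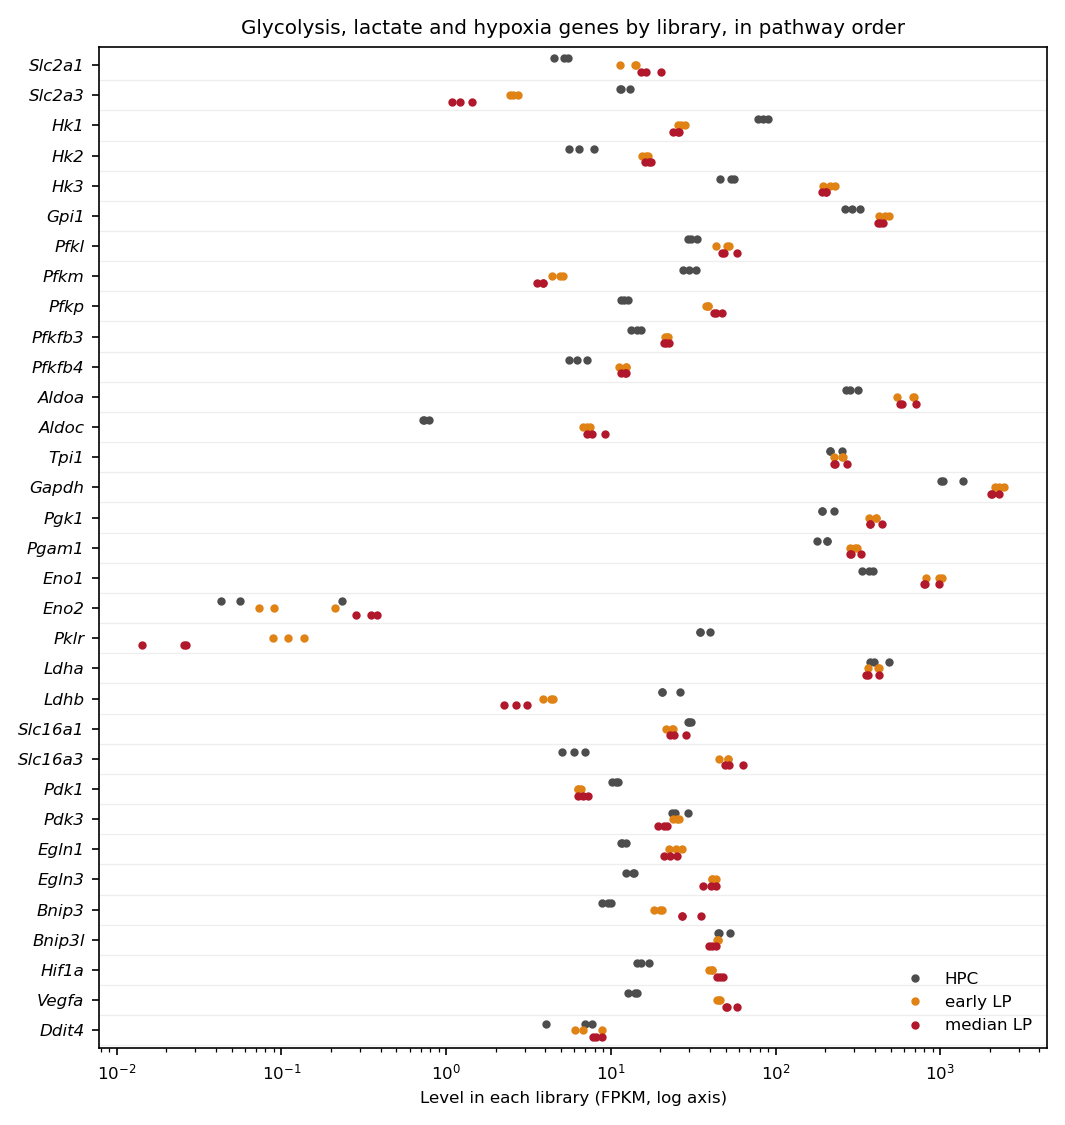
Level of each of the 33 genes in each of the 9 libraries (points), in FPKM on a log axis, with the genes in pathway order and the groups in 3 colours. The 3 HPC libraries lie left of both LP groups for most genes, and far right of them for Pklr, Pfkm, Ldhb, Hk1 and Slc2a3.

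By role, the 16 enzymes from hexokinase to pyruvate kinase held 11 that rose and 3 that fell in early LP, with a median log2 change of 0.86. In median LP, 12 of the 16 rose and 3 fell, with a median of 1.01. The 8 genes of glucose transport, lactate and pyruvate handling were mixed, with 2 that rose and 4 that fell in each phase and a median of -0.16 in both. Of the 7 genes of oxygen sensing and response, 5 rose in early LP and 6 in the median phase, the others (Bnip3l in both, Ddit4 in early LP) were not called, and the medians were 1.12 and 1.66. Levels of the HPC and early LP libraries did not overlap for 84.8% of the 33 genes, beside 75.3% of all genes tested. For median LP the shares were 93.9% and 76.0%.

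Among glucose transporters the leading gene changed from Slc2a3 to Slc2a1, with sums that overlapped between the groups. Slc2a1, on chromosome 4 at 119108745 to 119137329, encodes GLUT1, a widely expressed glucose transporter that is also that of the blood-brain barrier. Its level was 5.23, 4.50 and 5.51 FPKM in the HPC libraries, 11.4, 14.2 and 14.0 in early LP, and 20.2, 16.3 and 15.2 in the median phase. Every LP library lay above every HPC library, and the log2 rise was 1.43 (SE 0.11, adjusted p = 2.32e-07) in early LP and 1.83 (SE 0.11, adjusted p = 2.51e-08) in the median phase. Slc2a3, on chromosome 6 at 122727809 to 122742745, encodes GLUT3, a transporter of high glucose affinity. It was at 11.5, 11.3 and 13 FPKM in HPC, 2.72, 2.55 and 2.44 in early LP, and 1.43, 1.22 and 1.08 in the median phase. The 3 groups form separate steps with no overlap. Slc2a3 fell by 2.14 on the log2 scale (SE 0.09, adjusted p = 1.33e-09) in early LP and fell by 3.15 (SE 0.10, adjusted p = 8.75e-11) in the median phase. Summed over both genes, the level was 17.0 ± 1.39 FPKM in HPC, 15.8 ± 1.42 in early LP and 18.5 ± 2.80 in the median phase. Slc2a1 made up 29.8% ± 1.46 of that sum in HPC, 83.6% ± 2.43 in early LP and 93.3% ± 0.207 in the median phase.

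Hexokinase, which traps glucose in the cell as glucose 6-phosphate, showed the same kind of exchange together with a higher sum. Hk1 (chromosome 10, 62268855 to 62379908), the hexokinase of red cells and brain, was at 78.7, 84.4 and 90.5 FPKM in HPC, 25.6, 28.2 and 26.5 in early LP and 25.5, 25.9 and 23.9 in the median phase. It fell by 1.64 on the log2 scale (SE 0.07, adjusted p = 1.12e-09) and fell by 1.72 (SE 0.07, adjusted p = 7.04e-10). Hk3 (chromosome 13, 54949432 to 55021385), known from myeloid cells, moved the other way, from 55.7, 53.5 and 46.0 FPKM in HPC to 193, 229 and 214 in early LP and 202, 192 and 203 in the median phase. Its log2 rise was 2.07 (SE 0.09, adjusted p = 1.97e-09) and 2.0 (SE 0.09, adjusted p = 2.49e-09). In HPC every library had more Hk1 than Hk3, and in LP every library had more Hk3 than Hk1. Hk2 (chromosome 6, 82725027 to 82774454), the insulin-responsive isozyme of muscle that many tumours express, stayed the lowest of the 3. It was at 7.95, 6.43 and 5.56 FPKM in HPC, 15.4, 16.9 and 16.3 in early LP and 17.6, 17.1 and 16.2 in the median phase, a log2 rise of 1.33 (SE 0.11, adjusted p = 5.33e-07) and 1.42 (SE 0.11, adjusted p = 2.90e-07). The hexokinase sum was 143 ± 1.23 FPKM in HPC, 255 ± 20.2 in early LP and 242 ± 5.35 in the median phase. Hk3 held 36.2% ± 3.46 of it in HPC, 83.1% ± 0.582 in early LP and 82.6% ± 0.919 in the median phase, and Hk1 held 59.2% ± 4.25, 10.5% ± 0.367 and 10.4% ± 0.605. In the table Hk1 and Hk3 each share a locus with a neighbouring gene, 2210417K05Rik and Unc5a.

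The next enzyme, glucose phosphate isomerase, is encoded by Gpi1 on chromosome 7 (34201327 to 34230305) and turns glucose 6-phosphate into fructose 6-phosphate. It was at 290, 263 and 324 FPKM in HPC, 425, 487 and 460 in early LP and 449, 418 and 430 in the median phase, with the groups of LP above HPC throughout. Its rise was smaller than 2-fold, at 0.70 (SE 0.08, adjusted p = 6.45e-06) and 0.63 (SE 0.08, adjusted p = 1.46e-05) on the log2 scale.

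Phosphofructokinase works as a tetramer of liver (Pfkl), muscle (Pfkm) and platelet (Pfkp) type subunits, and the mix of the 3 changed. Pfkm (chromosome 15) was at 27.4, 29.7 and 33.1 FPKM in HPC, 4.42, 5.14 and 4.91 in early LP and 3.90, 3.54 and 3.85 in the median phase, so that no LP library came near an HPC library. It fell by 2.59 on the log2 scale (SE 0.08, adjusted p = 5.39e-11) in early LP and fell by 2.93 (SE 0.08, adjusted p = 2.31e-11) in the median phase. Pfkp (chromosome 13, 6548157 to 6648724) was at 12.7, 12.0 and 11.6 FPKM in HPC, 38.9, 38.9 and 38.1 in early LP and 47.6, 43.8 and 42.3 in the median phase. Its log2 rise was 1.71 (SE 0.07, adjusted p = 1.13e-09) and 1.94 (SE 0.07, adjusted p = 3.76e-10). Pfkl (chromosome 10, 77986949 to 78009796), the highest of the 3 by mean FPKM in each group, though in HPC not by counts per kilobase (41.0% of the sum, against 42.4% for Pfkm), was at 29.6, 30.5 and 33.6 FPKM in HPC, 43.7, 52.5 and 50.9 in early LP and 58.0, 49.0 and 47.2 in the median phase. It rose by 0.70 (SE 0.08, adjusted p = 6.67e-06) and 0.78 (SE 0.08, adjusted p = 2.70e-06). The subunit shares moved from 42.6% ± 0.313 Pfkl, 40.9% ± 1.51 Pfkm and 16.6% ± 1.68 Pfkp in HPC to 52.9% ± 2.36, 5.21% ± 0.126 and 41.9% ± 2.48 in early LP. Median LP had 51.5% ± 1.32 Pfkl, 3.79% ± 0.294 Pfkm and 44.7% ± 1.12 Pfkp. The locus of Pfkm in the table also holds Senp1, and that of Pfkp also holds Pitrm1.

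**Figure D2:**
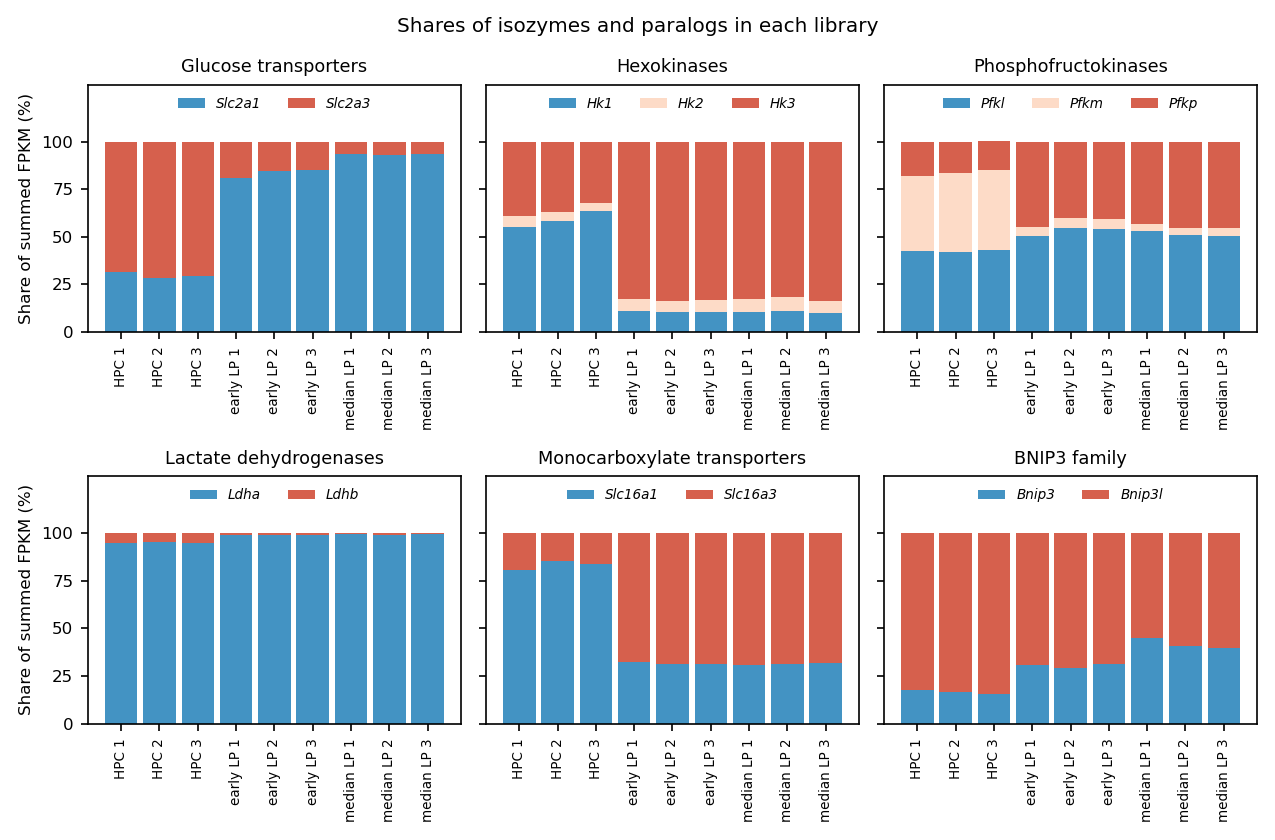
Share of each isozyme or paralog in the summed FPKM of its step, in percent, for each of the 9 libraries (stacked bars). The change of the leading gene between HPC and both LP groups is seen for glucose transporters, hexokinases and monocarboxylate transporters, while Ldha makes up nearly all of lactate dehydrogenase in every library.

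Pfkfb3 and Pfkfb4 make and degrade fructose 2,6-bisphosphate, the activator of phosphofructokinase, and both rose in each phase. Pfkfb3, the higher of the pair, was at 15.3, 14.5 and 13.3 FPKM in HPC, 22.3, 21.8 and 21.4 in early LP and 21.6, 22.5 and 21.0 in the median phase. Its rise was 0.66 (SE 0.08, adjusted p = 1.32e-05) and 0.68 (SE 0.08, adjusted p = 9.37e-06) on the log2 scale. Pfkfb4 went from 6.35 ± 0.808 FPKM to 12.0 ± 0.676 in early LP and 12.0 ± 0.454 in the median phase, with log2 changes of 0.95 (SE 0.09) and 0.98 (SE 0.09).

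Aldolase splits the sugar bisphosphate into 3-carbon units. Aldoa (chromosome 7, 126795234 to 126800447), the ubiquitous form, was at 284, 267 and 319 FPKM in HPC, 550, 697 and 685 in early LP and 708, 570 and 584 in the median phase. It rose by 1.18 (SE 0.09, adjusted p = 2.83e-07) and 1.14 (SE 0.09, adjusted p = 3.85e-07) on the log2 scale. Aldoc (chromosome 11, 78324198 to 78326760), the form known from brain, had the largest fitted rise of the 33 genes in each phase but a low level. It was at 0.732, 0.728 and 0.789 FPKM in HPC, 7.14, 6.75 and 7.45 in early LP and 7.14, 7.69 and 9.25 in the median phase, a log2 rise of 3.29 (SE 0.16, adjusted p = 3.18e-09) and 3.48 (SE 0.16, adjusted p = 1.79e-09). Even so, Aldoc made up only 0.259% ± 0.0128 of aldolase FPKM in HPC, 1.11% ± 0.163 in early LP and 1.30% ± 0.282 in the median phase.

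Triose phosphate isomerase, from Tpi1 on chromosome 6, was the one enzyme of this chain with a single gene that was called in neither phase. Its libraries were at 214, 213 and 252 FPKM in HPC, 225, 252 and 258 in early LP and 272, 227 and 231 in the median phase, and the groups overlapped. The log2 differences were 0.15 (SE 0.08, adjusted p = 0.105) and 0.16 (SE 0.08, adjusted p = 0.0888). The third HPC library decides this call: without it, Tpi1 passed in both phases, at 0.23 (adjusted p = 0.00978) and 0.24 (adjusted p = 0.00810). That library had relatively more short-transcript signal than the first and second HPC libraries. Its log2 difference of long minus short transcripts, centred within each group, was -0.256, against 0.117 and 0.139. With transcript length as a covariate Tpi1 was also called, with adjusted p-values of 0.00465 and 0.00326. Tpi1 shares its locus in the table with Spsb2.

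The enzymes of the lower chain, among them the most abundant transcripts of the set, rose in both phases. Gapdh (chromosome 6, 125161852 to 125165583), glyceraldehyde 3-phosphate dehydrogenase and a common reference gene in expression studies, was at 1042, 1014 and 1373 FPKM in HPC, 2148, 2436 and 2267 in early LP and 2267, 2054 and 2043 in the median phase. It rose by 1.04 (SE 0.10, adjusted p = 2.33e-06) and 0.94 (SE 0.10, adjusted p = 5.63e-06) on the log2 scale. Pgk1 (chromosome X, 106187124 to 106203699), the phosphoglycerate kinase that yields ATP, was at 192, 192 and 226 FPKM in HPC, 368, 408 and 407 in early LP and 446, 374 and 377 in the median phase, a rise of 1.02 (SE 0.08, adjusted p = 2.03e-07) and 1.08 (SE 0.08, adjusted p = 1.22e-07). Pgam1, phosphoglycerate mutase, was at 205, 179 and 204 FPKM in HPC, 282, 302 and 313 in early LP and 330, 286 and 282 in the median phase, a rise of 0.65 (SE 0.07, adjusted p = 5.94e-06) and 0.68 (SE 0.07, adjusted p = 3.89e-06). Eno1 (chromosome 4, 150237197 to 150248873), the common enolase, was at 371, 337 and 392 FPKM in HPC, 820, 988 and 1025 in early LP and 983, 795 and 806 in the median phase. Its log2 rise was 1.39 (SE 0.09, adjusted p = 5.79e-08) and 1.28 (SE 0.09, adjusted p = 1.20e-07). For each of these 4 genes the lowest LP library lay above the highest HPC library.

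Eno2, the neuronal enolase, rested on few fragments. It was at 0.0560, 0.0430 and 0.235 FPKM in HPC, 0.211, 0.0896 and 0.0731 in early LP and 0.349, 0.382 and 0.285 in the median phase, from 25, 23 and 72 recovered fragments in each group of 3 libraries. The third HPC library lay above all early LP libraries but below all median LP libraries. The log2 rise in median LP was 1.63 (SE 0.51, adjusted p = 0.0114), and the difference in early LP was 0.18 (SE 0.61, adjusted p = 0.802).

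**Figure D3:**
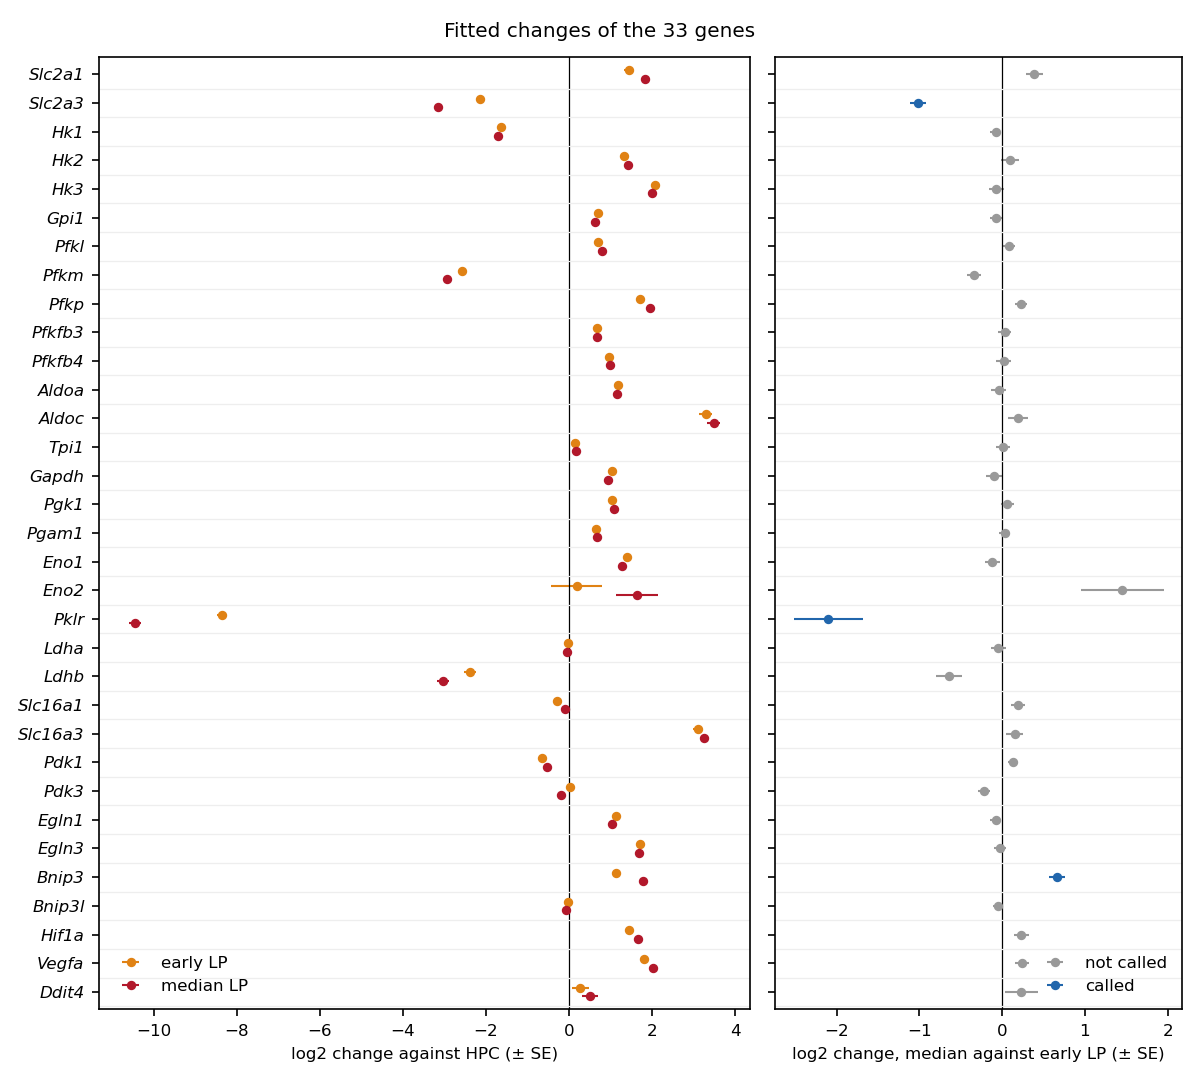
Fitted log2 change of each gene (points) with its SE (bars), in the left panel for early and median LP against HPC and in the right panel for median against early LP. Most genes lie right of 0 at left, Pklr lies farthest left at -8.35 and -10.45, and at right only Slc2a3, Pklr and Bnip3 are called.

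Pyruvate kinase makes pyruvate and ATP, and the gene of its liver and red cell forms had the largest change of the 33. Pklr (chromosome 3, 89136142 to 89146594) was at 34.8, 35.0 and 39.8 FPKM in HPC, 0.137, 0.109 and 0.0888 in early LP and 0.0263, 0.0143 and 0.0255 in the median phase. Recovered fragments over each group of 3 libraries were 8505 in HPC, 22 in early LP (exact Poisson 95% interval 13.8 to 33.3) and 5 in median LP (1.62 to 11.7), where the intervals cover counting error only. On the log2 scale it fell by 8.35 in early LP (SE 0.12, adjusted p = 7.71e-13) and fell by 10.45 in median LP (SE 0.15, adjusted p = 6.85e-13). Per depth, HPC held 367 times (exact 95% interval 243 to 587) the fragments of early LP and 1744 times (747 to 5373) those of median LP. In HPC the level came from the transcript that starts at base 89136142, at 36.5 ± 2.79 FPKM, which is the red cell type form. The second listed transcript, starting at 89136572, was at 0.00162 ± 0.000401 FPKM there. The other pyruvate kinase gene, Pkm, is not among the 33 genes but serves the same step: it went from 234 ± 20.9 FPKM in HPC to 824 ± 88.5 in early LP and 755 ± 64.2 in the median phase, a log2 rise of 1.84 (SE 0.09, adjusted p = 3.50e-09) and 1.73 (SE 0.09, adjusted p = 5.69e-09). The erythroid markers Klf1 and Gata1, which were at 0.134 to 0.700 FPKM in the LP libraries and at 61.2 to 107 FPKM in HPC, moved with Pklr. Hba-a1, a haemoglobin gene, did not follow it in median LP, where its 3 libraries were at 372, 512 and 331 FPKM.

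Of the members whose windows before the start hold AGATAA, a form of the site bound by GATA factors, Pfkm and Pklr fell and Vegfa rose. The sequences below show the 200 bases before the start of the Pklr red cell transcript and before the first 2 of 4 Pfkm starts in the RefSeq promoter table (build GRCm38.p6, plus strand), those near the starts of the measured transcripts described after them, with AGATAA and ACGTG, or its reverse complement CACGT, in capitals.
Pklr chr3:89135942-89136141: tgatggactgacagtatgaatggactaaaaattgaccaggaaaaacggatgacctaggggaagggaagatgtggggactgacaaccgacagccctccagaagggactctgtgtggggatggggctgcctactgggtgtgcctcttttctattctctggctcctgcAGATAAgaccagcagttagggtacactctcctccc
Pfkm upstream start chr15:98092389-98092588: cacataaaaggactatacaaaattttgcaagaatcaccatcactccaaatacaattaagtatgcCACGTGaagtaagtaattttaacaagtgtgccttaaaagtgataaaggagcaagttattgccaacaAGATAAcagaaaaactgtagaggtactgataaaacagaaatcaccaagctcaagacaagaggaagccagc
Pfkm downstream start chr15:98108271-98108470: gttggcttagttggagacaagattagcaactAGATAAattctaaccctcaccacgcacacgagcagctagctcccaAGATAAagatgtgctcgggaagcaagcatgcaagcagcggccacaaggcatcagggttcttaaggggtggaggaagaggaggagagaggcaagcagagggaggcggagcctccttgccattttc
AGATAA begins 35 bases before the Pklr start, 70 before the upstream Pfkm start, and 169 and 124 before the downstream one. Of the 2 Pfkm starts not shown, the window of 250 bases before base 98108556 holds 1 AGATAA and that before base 98112060 holds 0. Over the 250 bases upstream and both strands, AGATAA was in 3 of 31 members with a window (9.7%: Pfkm, Pklr and Vegfa) and in 7.5% of the 9302 tested genes with one. By the call in early LP, it was in 1 of 20 members that rose, 2 of 6 that fell and 0 of 5 that were not called. A gene counted if any of its listed starts held the letters, so genes with more starts, such as Pfkm, had more windows. A match of letters is a description only, and binding was not measured.

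The fall of Pfkm was unequal between its starts. The transcript that begins at base 98092589 of chromosome 15 was at 20.2, 21.1 and 22.0 FPKM in HPC, 0, 0.225 and 0.276 in early LP and was listed at 0 in all 3 libraries of the median phase. The one that begins at 98108466, with the same coding length of 2340 bases, was at 7.00, 8.41 and 11.2 FPKM in HPC, 4.42, 4.92 and 4.63 in early LP and 3.90, 3.54 and 3.85 in the median phase. The upstream start thus gave 70.4% ± 3.77 of Pfkm FPKM in HPC and 3.33% ± 2.95 in early LP. These shares rest on the authors' split of fragments between transcripts that share most exons, and they were not tested.

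The main subunit of lactate dehydrogenase was called in neither phase, while the minor one fell in both. Ldha (chromosome 7, 46845804 to 46855627), the subunit that favours lactate production, was at 376, 398 and 489 FPKM in HPC, 362, 424 and 419 in early LP and 426, 362 and 356 in the median phase. The groups overlapped, and the log2 differences were -0.02 (SE 0.09, adjusted p = 0.875) and -0.06 (SE 0.09, adjusted p = 0.549). Over 17 alternative settings the difference ranged from -0.08 to 0.09 in early LP and from -0.11 to 0.04 in the median phase. Ldhb (chromosome 6, 142490249 to 142507943), the subunit that favours the use of lactate, was at 20.4, 20.5 and 26.2 FPKM in HPC, 4.43, 3.86 and 4.35 in early LP and 2.26, 3.08 and 2.64 in the median phase. It fell by 2.39 on the log2 scale (SE 0.14, adjusted p = 2.17e-08) and fell by 3.03 (SE 0.15, adjusted p = 4.06e-09). Ldhb was 5.04% ± 0.124 of lactate dehydrogenase FPKM in HPC, 1.05% ± 0.155 in early LP and 0.702% ± 0.161 in the median phase.

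Of the monocarboxylate transporters, which move lactate with a proton, the one known for export rose strongly. Slc16a3 (chromosome 11, 120948484 to 120959000), which encodes MCT4, was at 7.00, 5.04 and 5.94 FPKM in HPC, 45.1, 51.8 and 51.7 in early LP and 63.7, 52.5 and 49.7 in the median phase. Its log2 rise was 3.10 (SE 0.11, adjusted p = 2.71e-10) and 3.25 (SE 0.11, adjusted p = 1.75e-10). Slc16a1, which encodes MCT1, was at 29.4, 29.7 and 30.6 FPKM in HPC, 21.6, 23.4 and 23.7 in early LP and 28.7, 24.1 and 23.0 in the median phase. It fell by 0.30 (SE 0.08, adjusted p = 0.00441) in early LP, and its difference in the median phase was -0.11 (SE 0.08, adjusted p = 0.239). In FPKM each median LP library lay below every HPC library all the same. FPKM lack the scaling of the fit, however. In median LP the log2 ratio of mean FPKM differed from the fitted change by a median of -0.08 over genes. Without the first median LP library, Slc16a1 fell by 0.19 (adjusted p = 0.0339). The share of Slc16a3 in the sum of both went from 16.7% ± 2.39 in HPC to 68.4% ± 0.698 in early LP and 68.6% ± 0.307 in the median phase, while the sum was 35.9 ± 0.999, 72.4 ± 4.94 and 80.5 ± 10.4 FPKM.

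Slc16a3 also changed in its transcripts, all of which share a coding length of 1410 bases. The transcript with the upstream start, at base 120948480, was at 5.19, 3.21 and 3.72 FPKM in HPC, 5.93, 10.3 and 7.13 in early LP and 8.61, 6.83 and 10.3 in the median phase. The one with the downstream start, at 120949081, was at 1.35, 1.44 and 2.01 FPKM in HPC, 35.1, 35.9 and 41.4 in early LP and 50.2, 42.4 and 35.2 in the median phase. Its share of Slc16a3 FPKM was 27.3% ± 7.34 in HPC, 75.7% ± 5.64 in early LP and 76.8% ± 5.14 in the median phase. The remaining transcript, starting at 120949067, stayed below 10% of the mean in each group, at 5.87%, 8.66% and 7.43%. As for Pfkm, these shares rest on the authors' split of fragments between transcripts, and they were not tested.

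**Figure D4:**
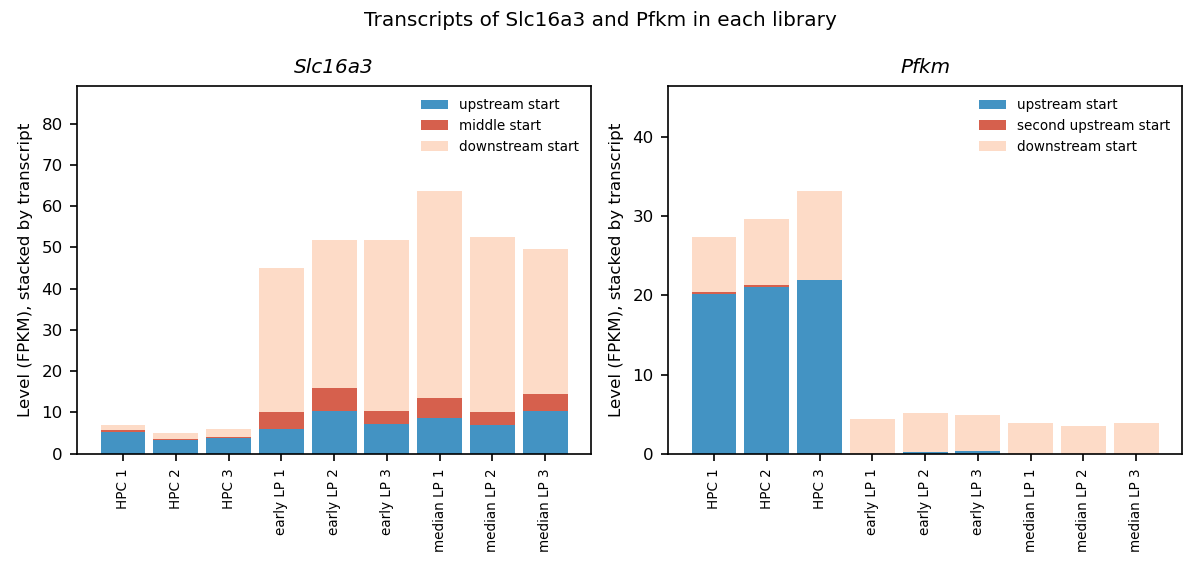
Level of each listed transcript of Slc16a3 (left) and Pfkm (right) in each library, in FPKM, stacked in the order of their starts. The downstream Slc16a3 transcript makes up most of the LP bars, and the upstream Pfkm transcript, which makes up most of the HPC bars, is missing from the median LP bars.

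The window just before the downstream Slc16a3 starts is shown beside those of Pgk1, which rose, and Ldha, which was not called, because each holds ACGTG, a core of the site that HIF binds. The lines give the 200 bases before the start on the plus strand (RefSeq, GRCm38.p6), with ACGTG and its reverse complement CACGT in capitals.
Slc16a3 chr11:120948867-120949066: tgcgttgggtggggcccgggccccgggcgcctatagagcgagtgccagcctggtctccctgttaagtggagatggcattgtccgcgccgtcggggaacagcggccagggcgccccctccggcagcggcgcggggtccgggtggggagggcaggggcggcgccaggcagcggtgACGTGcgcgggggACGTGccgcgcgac
Pgk1 chrX:106186900-106187099: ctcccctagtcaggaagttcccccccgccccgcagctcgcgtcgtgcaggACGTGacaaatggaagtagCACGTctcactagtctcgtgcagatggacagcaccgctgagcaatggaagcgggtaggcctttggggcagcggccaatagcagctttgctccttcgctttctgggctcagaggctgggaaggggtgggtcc
Ldha chr7:46845604-46845803: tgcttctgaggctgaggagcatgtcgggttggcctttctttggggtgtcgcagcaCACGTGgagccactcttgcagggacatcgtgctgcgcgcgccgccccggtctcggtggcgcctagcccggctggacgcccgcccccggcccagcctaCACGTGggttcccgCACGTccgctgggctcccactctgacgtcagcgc
In these windows ACGTG begins 27 and 14 bases before the Slc16a3 start, and 150 and 131 before that of Pgk1. Runs of CACGTG in the Ldha window read ACGTG on both strands. Over 250 bases upstream and both strands, ACGTG was in 18 of 31 members with a window (58.1%) and in 25.1% of the 9302 tested genes with one. By the call in early LP, it was in 13 of 20 members that rose, 2 of 6 that fell and 3 of 5 that were not called. The other core letters, GCGTG, were in 64.5% of members and 49.6% of genes, and CACGTG, which contains ACGTG, in 19.4% and 9.9%. Many of the 33 genes are textbook HIF targets, so the choice of genes bears on these shares, and no test was made.

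Pyruvate dehydrogenase kinases inhibit pyruvate dehydrogenase and so hold pyruvate back from oxidation in the mitochondrion. Pdk1 was at 10.6 ± 0.443 FPKM in HPC, 6.42 ± 0.124 in early LP and 6.82 ± 0.460 in the median phase, and it fell by 0.65 (SE 0.06, adjusted p = 9.17e-07) and fell by 0.53 (SE 0.06, adjusted p = 5.84e-06) on the log2 scale. Pdk1 is known as a gene that hypoxia raises. Pdk3, the higher of the pair, was at 24.6, 23.5 and 29.3 FPKM in HPC, 23.8, 25.8 and 25.2 in early LP and 22.0, 19.4 and 20.9 in the median phase. It was not called in early LP (adjusted p = 0.836), and in median LP it fell by 0.20 (SE 0.07, adjusted p = 0.0183). That call was lost without the first or the third HPC library or the second median LP library, with adjusted p-values of 0.0536 to 0.101.

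Hif1a itself, the oxygen-regulated subunit of HIF, rose in RNA level. Hif1a (chromosome 12, 73907867 to 73947530) was at 17.0, 15.3 and 14.5 FPKM in HPC, 41.0, 39.6 and 41.2 in early LP and 47.8, 45.8 and 44.4 in the median phase. Its log2 rise was 1.43 (SE 0.09, adjusted p = 3.08e-08) and 1.66 (SE 0.09, adjusted p = 8.10e-09). HIF-1alpha is known to be set mainly by protein stability, which was not measured. Of the prolyl hydroxylases that mark it for decay, Egln3 and Egln1 rose too. Egln2, which is not among the 33 genes, was called in neither phase. It was at 20.3 ± 1.89 FPKM in HPC, 22.4 ± 3.32 in early LP and 18.6 ± 2.43 in the median phase. Egln3 (chromosome 12, 54178981 to 54203874) was at 13.9, 12.3 and 13.6 FPKM in HPC, 41.2, 43.7 and 41.0 in early LP and 43.5, 40.7 and 36.5 in the median phase, a rise of 1.71 (SE 0.07, adjusted p = 1.07e-09) and 1.68 (SE 0.07, adjusted p = 1.16e-09). Egln1 (chromosome 8, 124908587 to 124949254), the main oxygen sensor, was at 12.4, 11.7 and 11.5 FPKM in HPC, 22.5, 27.0 and 24.8 in early LP and 25.2, 20.9 and 23.0 in the median phase, a rise of 1.12 (SE 0.08, adjusted p = 6.91e-08) and 1.04 (SE 0.08, adjusted p = 1.32e-07). Genes of chromosome 8 as a whole had a median log2 change of 0.53 and 0.51 in early and median LP, and its part in the rise of Egln1 was not tested.

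Among the targets of the hypoxia response, Vegfa and Bnip3 rose while Bnip3l did not pass the test. Vegfa (chromosome 17, 46016993 to 46032377), the vascular growth factor, was at 14.5, 14.0 and 12.7 FPKM in HPC, 44.4, 46.3 and 45.7 in early LP and 50.8, 49.8 and 58.5 in the median phase, a log2 rise of 1.79 (SE 0.09, adjusted p = 6.67e-09) and 2.02 (SE 0.09, adjusted p = 2.24e-09). Of its 6 listed transcripts, one held 46.5% ± 4.74 of the level in HPC, 55.0% ± 1.61 in early LP and 54.4% ± 0.415 in the median phase. Bnip3 (chromosome 7, 138890836 to 138909506), a mitophagy receptor, was at 9.64, 8.89 and 9.96 FPKM in HPC, 19.8, 18.4 and 20.5 in early LP and 35.3, 27.2 and 26.9 in the median phase. It rose by 1.12 (SE 0.10, adjusted p = 1.32e-06) and 1.78 (SE 0.10, adjusted p = 1.88e-08). Its paralog Bnip3l, which clears mitochondria from maturing red cells, was at 45.6, 44.9 and 53.1 FPKM in HPC, 44.1, 44.6 and 44.8 in early LP and 43.7, 39.5 and 41.2 in the median phase. It was called in neither phase, with adjusted p-values of 0.699 and 0.274, although no LP library reached the lowest HPC library. By limma on log2 FPKM it fell by 0.12 (adjusted p = 0.0470) and fell by 0.18 (adjusted p = 0.00646). The log2 ratios of mean FPKM differed from the fitted changes by a median over genes of -0.05 in early LP and -0.08 in median LP. Small differences in FPKM are therefore not on the scale of the fit. Bnip3 made up 16.6% ± 0.827 of the pair in HPC, 30.5% ± 1.21 in early LP and 41.6% ± 2.69 in the median phase. Ddit4, an inhibitor of the mTOR pathway, was at 7.01, 4.02 and 7.65 FPKM in HPC, 6.74, 6.06 and 8.87 in early LP and 8.89, 8.08 and 7.84 in the median phase. Its difference in early LP was 0.27 (SE 0.20, adjusted p = 0.254), and its rise in median LP was 0.50 (SE 0.20, adjusted p = 0.0422). That call held in 10 of 17 alternatives. It was lost by limma on log2 FPKM (adjusted p = 0.0611), with only the libraries compared in the fit (0.0507), without the second HPC library, where the difference was 0.28 (adjusted p = 0.105), and without the first early LP library or any 1 of the median LP libraries, with adjusted p-values of 0.0512 to 0.0849.

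Between the phases of leukemia few of the genes differed. Of all genes tested, 1.48% rose and 0.997% fell in median against early LP. Of the 33, Bnip3 rose, by 0.66 (SE 0.10, adjusted p = 0.00539), Slc2a3 fell by 1.02 (SE 0.10, adjusted p = 0.000815) and Pklr fell by 2.10 (SE 0.42, adjusted p = 0.0292). The median log2 change of the 33 was 0.02, beside 0.00 over all genes. The Bnip3 and Slc2a3 calls held in all 17 alternatives. The Pklr call compares 22 fragments with 5, a ratio per depth of 4.75 (exact 95% interval 1.75 to 16.0), and held in 9 of 16 alternatives. It was lost by DESeq2 (adjusted p = 0.0527) and by limma on log2 FPKM, where the difference was -0.22 (adjusted p = 0.154). It was also lost without the first or second early LP library or any 1 of the median LP libraries, with adjusted p-values of 0.0704 to 0.155. Slc2a1, at 0.39 (SE 0.10, adjusted p = 0.0772), Pfkm, at -0.34 (SE 0.08, adjusted p = 0.0501), and Ldhb, at -0.64 (SE 0.16, adjusted p = 0.0703), did not pass. Without the third HPC library they did, with adjusted p-values of 0.0463, 0.0242 and 0.0297, as did Pfkp (0.0374), Pdk3 (0.0465) and Hif1a (0.0484). Over all genes, the 190 that rose and 128 that fell became 391 and 296 without that library, and 66 and 39 without the second early LP library. Levels of the phases did not overlap for 36.4% of the 33 genes, beside 22.3% of all genes tested.

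Further genes of these pathways come from lists that hold none of the 33. Their counts are read beside the 35.3% of all genes tested that rose and 37.9% that fell in early LP, and 36.0% and 37.7% in the median phase. Of 13 other glycolysis genes tested, 5 rose and 6 fell in each phase, with medians of -0.25 and -0.06, which is 38.5% and 46.2% of them, near the shares over all genes. Pkm rose as given above, and Minpp1, an inositol and bisphosphoglycerate phosphatase, fell from 86.2 FPKM to 18.5 and 16.9. Slc2a13, a myo-inositol transporter, had 5 recovered fragments over the HPC libraries, 311 in early LP and 340 in the median phase. Hkdc1, a hexokinase-like gene, had 1 fragment in HPC, 478 in early LP (ratio per depth 503, exact 95% interval 89.8 to 19905) and 401 in median LP (391, 69.8 to 15486). Of 19 other genes of lactate and pyruvate, 10 rose and 6 fell in early LP (median 0.31) and 10 rose and 7 fell in median LP (0.34). Gpt2 and Gpt, the alanine transaminases that link pyruvate to alanine, rose by 3.02 (SE 0.09, adjusted p = 8.17e-11) and 1.74 (SE 0.10, adjusted p = 1.72e-08) in early LP. Emb, a chaperone of monocarboxylate transporters, went from 56.6 FPKM to 150 and 131, and Mpc2, a subunit of the mitochondrial pyruvate carrier, from 33.8 to 80.6 and 83.3, and both rose.

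The pentose phosphate pathway branches off at glucose 6-phosphate, and 7 of its 12 genes rose and 4 fell in each phase, with medians of 0.52 and 0.32. Tktl1, a transketolase-like gene, stood out with 9 fragments over the HPC libraries against 4666 in early LP and 4365 in the median phase, or 0.0420 ± 0.0285, 24.7 ± 0.991 and 20.3 ± 0.813 FPKM. H6pd rose, from 9.16 FPKM to 26.1 and 29.0, as did Rpe, by 0.75 and 0.76 on the log2 scale, and Rbks, ribokinase, fell from 15.0 to 3.02 and 2.41. Of 14 genes of gluconeogenesis and glycogen, 9 rose and 3 fell in early LP (median 0.61), and 8 rose and 3 fell in median LP (0.55). Gbe1 and Pygl, which branch and break down glycogen, went from 12.1 and 31.8 FPKM in HPC to 33.0 and 68.7 in early LP. Fbp1, fructose bisphosphatase, rose from 4.65 to 19.8 and 14.4, and Ugp2, which makes UDP-glucose, from 12.1 to 25.5 and 25.6.

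Of 13 other genes of hypoxia sensing, 4 rose and 4 fell in early LP (median -0.06) and 6 rose and 3 fell in median LP (-0.02). Cited2, a competitor of HIF for its coactivator, rose by 1.38 (SE 0.09) and 1.19 (SE 0.09), and Siah2, a ubiquitin ligase for prolyl hydroxylases, by 1.17 (SE 0.09) and 1.13 (SE 0.09). Hif3a fell from 2.61 FPKM to 0.413 and 0.539, and Epas1, the HIF-2alpha gene, rose from 7 fragments over the HPC libraries to 89 and 180, at 0.0146, 0.215 and 0.392 FPKM. Of 25 other hypoxia targets, 12 rose and 5 fell in each phase, with medians of 0.33 and 0.23. Cxcr4, a chemokine receptor that holds cells in the marrow, went from 46.9 FPKM to 177 and 217, Stc2, a secreted glycoprotein, from 2.77 to 17.4 and 20.4, and Mxi1, a MYC antagonist, from 9.37 to 23.2 and 24.4, and all 3 rose. Selenbp1 fell from 52.8 to 18.9 and 16.7. Between the phases, 4 of the 25 rose: P4ha1 by 0.52, P4ha2 by 2.13, Bhlhe40 by 0.92 and Cxcr4 by 0.32, with adjusted p-values of 0.0190, 0.0152, 0.0132 and 0.0341. Pdp2, a pyruvate dehydrogenase phosphatase, rose by 0.46 (adjusted p = 0.0493) between the phases.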

How the data were processed

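Per the file headers, the authors deposited FPKM and estimated counts of 21388 RefSeq transcripts in each library. The submitters' processing notes name TopHat2 2.0.6 and mm10, and per the labels' protocols libraries were made with the TruSeq RNA kit from total RNA. How transcripts were quantified and with which annotation, and whether strand was used, is not given in the sources used here. The estimated counts are not whole, but low ones were multiples of a fixed step in each library (89.3 to 91.2% whole within 0.05), so dividing by the step gave recovered fragments.

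Transcripts were summed by symbol to 16537 genes. Levels are the deposited FPKM. Changes come from edgeR 4.0.16 (R 4.3.3): rounded estimated counts, TMM, filterByExpr by group (12837 genes kept, 3700 left out), quasi-likelihood test, 1 fit of all 9 libraries, two-sided, common biological coefficient of variation 9.81%. Simulated data with known changes gave 100% recovery at a log2 change of 1 and 67% at 0.5 for early LP against HPC. The members and lists (further pathway genes and the 9 marker lists above) were chosen with earlier results of these data known, so counts in a list are descriptions. Library values were given for members with a called change of at least 2-fold against HPC or a call between the phases, and for the highest gene of each step in any group. From each further list up to 4 called genes with the smallest adjusted p in either comparison with HPC were named. Egln2, Pdp2, the markers that fell among monocyte and neutrophil genes, P4ha1, P4ha2 and Bhlhe40 were chosen after their values were seen. Coordinates are mm10, from 1, of the locus in the table. Of 52 member transcripts, 49 matched GENCODE vM21 (GRCm38), the source of transcript starts and coding lengths, and 31 of 33 members matched the RefSeq promoter table. Gpi1, Eno1 and Pdk1 each appear under 2 gene identifiers, which were summed. Alternatives were DESeq2 1.42.0, limma 3.58.1 on log2(FPKM + 0.5), other scaling, filters and designs, and leaving out each library.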

Additional observations from a re-analysis of the deposited data

Results flagged for a closer look

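Of the 33 genes, 3 had effects that differed between the leukemic phases by the test of the difference itself (edgeR's quasi-likelihood test, median against early LP). Slc2a3 was lower in median LP (log2 difference -1.02), as was Pklr (-2.10, from 22 and 5 fragments), and Bnip3 was higher (0.66). Slc2a3 kept its direction and its call in all 17 alternatives, with values of -1.10 to -0.79, and so did Bnip3, with 0.53 to 0.72. The levels of hemoglobin RNA also differed between the phases: Hba-a1 was at 7.55, 16.0 and 7.08 FPKM in early LP and 372, 512 and 331 in median LP, and its part in the differences above was not tested.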

How the results depend on the processing

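Each comparison was refitted with 9 libraries left out in turn and 8 other settings. Counts of called genes and members against HPC stayed within 1.5 times in 68 of 68 cases for each phase: 20 to 21 members rose and 7 to 8 fell in early LP, and 20 to 23 rose and 6 to 9 fell in the median phase. No member change reversed its sign where the main or the alternative fit called it. Changes called in neither did in places, such as Ldha in early LP, which ranged from -0.08 to 0.09. In median against early LP, 32 of 68 counts moved by more than 1.5 times. Members that rose (1) became 3 by DESeq2, 4 with only the libraries compared and 5 with a transcript length covariate, and members that fell (2) became 1 by limma and 5 with the length covariate. Genes that rose (190) became 325 by DESeq2, 362 with only the libraries compared and 755 with the length covariate, and genes that fell (128) became 251, 243 and 596. Without 1 library each, 1 to 4 members rose and 1 to 5 fell, and 66 to 391 genes rose and 39 to 296 fell. The cause was not tested.

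The labels state no pairing by replicate number. Same-numbered libraries of 2 groups correlated at -0.42 to 0.265 in their deviations. With 3 libraries per group such correlations cannot decide whether the libraries were paired. With a replicate block, 20 members rose and 7 fell in early LP, 22 and 7 in the median phase, and 1 and 2 between the phases, where 130 genes rose and 62 fell. Not every library correlated best with its own number.

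With a library left out, isozyme shares moved by less than their SD in all 216 cases. With 3 libraries per group no other outcome was possible, since leaving any of them out cannot move a mean by its SD. These cases therefore cannot decide whether the shares depend on a single library. From counts per kilobase, 25 of 72 shares moved by more than their SD, in the steps of Slc2a, Pfk, Slc16a, Pdk, Egln and Bnip3 genes. There Slc16a1 was 34.9% and 35.5% of the transporter pair in early and median LP, and in HPC Pfkm (42.4%) lay above Pfkl (41.0%), the one order among these that turned. Depth limits Pklr in LP and Eno2 in all groups.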
